A study of Mus musculus with 201 samples.

Results

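The genes described here were 6 members of the corticosteroid system of the neuron, *Sgk1*, *Sgk3*, *Nr3c1*, *Nr3c2*, *Fkbp5* and *Tsc22d3*, out of 42609 gene symbols shared by all 3 tables of a single-cell RNA-seq study of mouse dentate granule cells (DGCs). All 6 symbols were found in every table. They were chosen by name, with results from these same tables already known, so that the differences given below are descriptions and carry no test. Of the 201 cells and nuclei deposited, 172 were analysed.

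Whole cells came from mice expressing green fluorescent protein from the *Prox1* promoter, were freed with papain and were sorted on that fluorescence. At 1 h before death the mice had received either saline or 50 mg per kg of pentylenetetrazole (PTZ), a convulsant that blocks GABA(A) receptors, and 2 mice were pooled for each injection. Nuclei came from 8-week-old female C57BL/6 mice. After 15 min in an unfamiliar environment (NE) and 1 h back in the home cage, nuclei stained for PROX1 protein were sorted by antibody into FOS+ and FOS- nuclei, FOS being the protein product of an immediate early gene (IEG) that marks recently active neurons. Nuclei of a mouse left in its home cage (HC) were captured and amplified on a microfluidic chip, and those positive for NEUN and PROX1 were taken, which the labels list as a sort and the methods as scoring of images of the capture sites. The analysis held 38 saline and 30 PTZ cells, 41 FOS- and 40 FOS+ NE nuclei, and 23 HC nuclei. Saline cells, PTZ cells, NE nuclei and HC nuclei were each 1 preparation from 1 mouse or 1 pool. The cells of a preparation are not replicates of its treatment. FOS+ and FOS- nuclei came from the same preparation and differ by the sort, not by a treatment. The titles of the saline cells end in another suffix than those of the PTZ cells, and the saline suffix alone contains the letters frz. The labels do not say what the suffixes mark, and it cannot be told apart from treatment.

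Corticosterone enters neurons and binds a pair of nuclear receptors. The mineralocorticoid receptor, encoded by *Nr3c2*, binds it with high affinity and is abundant in the hippocampus, whereas the glucocorticoid receptor, encoded by *Nr3c1*, has lower affinity and is occupied mainly at the daily peak and in stress. Both are held ready by heat shock proteins, and the co-chaperone FKBP5 lowers the affinity of the glucocorticoid receptor while its own gene is induced by that receptor, in a feedback loop. *Tsc22d3* encodes the leucine zipper protein GILZ, a classic glucocorticoid target. *Sgk1* encodes serum- and glucocorticoid-regulated kinase 1, which is induced by corticosteroids and also by other stimuli including neuronal activity, and which acts on ion channels and transporters. *Sgk3* encodes a relative of that kinase which binds endosomal lipids.

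The glucocorticoid receptor binds the palindrome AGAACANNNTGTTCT, the full glucocorticoid response element. RefSeq start-site windows of the GRCm38.p6 build, from 250 bases before to 50 bases after each start, were on hand for 4 of the 6 genes, with 6 windows for *Sgk1*, 1 for *Nr3c2*, 1 for *Fkbp5* and 3 for *Tsc22d3*. Searched on both strands, the full element was in 3 of 32851 windows (0.00913%) of the genome, and 1 of these was an *Sgk1* window. The 15 letters began 189 bases before that start and 965 bases before the start of the principal *Sgk1* transcript. The 250 bases before each of these starts are shown because *Sgk1* is the member whose values differed most between sorted nuclei. Capitals mark the full element. The first window lies at chr10:21993640-21993889 and the second at chr10:21994416-21994665, both on the plus strand and both free of annotated *Sgk1* exons.

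Sgk1, before the start with the element: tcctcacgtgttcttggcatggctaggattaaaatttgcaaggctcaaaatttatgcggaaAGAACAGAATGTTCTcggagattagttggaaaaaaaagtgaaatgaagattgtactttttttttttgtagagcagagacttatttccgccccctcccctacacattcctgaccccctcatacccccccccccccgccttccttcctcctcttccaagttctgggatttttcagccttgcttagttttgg

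Sgk1, before the principal start: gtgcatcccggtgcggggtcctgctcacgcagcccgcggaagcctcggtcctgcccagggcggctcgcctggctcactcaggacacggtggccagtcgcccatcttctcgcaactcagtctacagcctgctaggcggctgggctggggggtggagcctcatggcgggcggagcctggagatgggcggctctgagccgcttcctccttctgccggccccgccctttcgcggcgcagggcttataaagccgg

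The single arm AGAACA, which also lies at both ends of the full element, was in 18.97% of all windows on either strand, among them 3 *Sgk1* windows and 1 *Tsc22d3* window, and in none of the *Nr3c2* and *Fkbp5* windows. The cAMP response element TGACGTCA (1.79% of all windows) and the AP-1 site TGANTCA (7.81%) were in no window of the members. These matches describe letters in short windows and do not show binding.

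In the GRCm38 annotation of GENCODE, *Sgk1* lies on the plus strand of chromosome 10 (21882184 to 21999903), *Sgk3* on the plus strand of chromosome 1 (9798107 to 9900845) and *Nr3c2* on the plus strand of chromosome 8 (76899442 to 77245012). *Fkbp5* lies on the minus strand of chromosome 17 (28399094 to 28517527), *Tsc22d3* on the minus strand of chromosome X (140539528 to 140600659) and *Nr3c1* on the minus strand of chromosome 18 (39410545 to 39519421). The exons of 5 genes share no base with another annotated gene. *Nr3c2* shares 247 of 6474 exonic bases with *Gm10649* on the other strand, and reads of this protocol do not tell the strands apart.

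Depth limited what could be seen. Total counts ranged from 401331 to 2696040 in saline cells, from 67212 to 5129240 in PTZ cells, from 63775 to 1060520 in FOS- nuclei, from 80096 to 1035170 in FOS+ nuclei and from 107647 to 278779 in HC nuclei. A gene was called detected in a cell at a TPM above 1, the deposited level of the gene scaled for transcript length so that the genes of a cell sum to at most 1000000. The HC nuclei had a median of 3213 genes detected, against 6020 in FOS- and 6326 in FOS+ nuclei. The granule cell marker *Prox1* was detected in 38 of 38 saline cells, 30 of 30 PTZ cells, 34 of 41 FOS- nuclei, 33 of 40 FOS+ nuclei and 14 of 23 HC nuclei. Confidence intervals (CI) below are exact 95% binomial or Poisson intervals. They cover counting error only, limit the share of cells with reads and not of cells that express a gene, and without molecular identifiers several reads can stem from a single molecule.

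**Figure D1:**
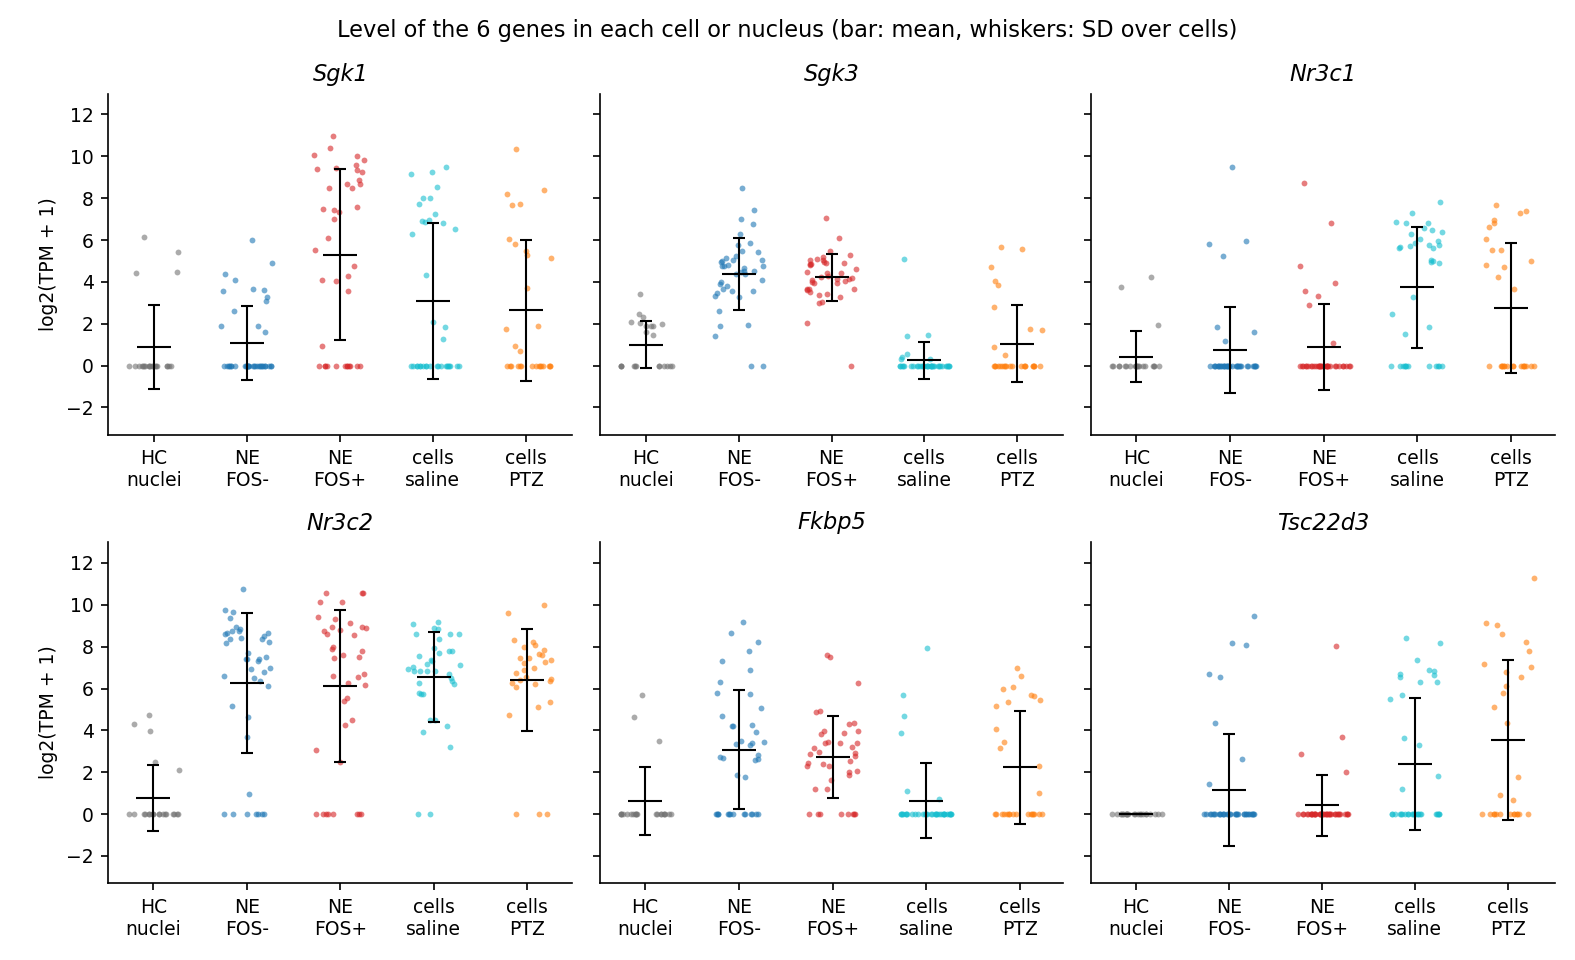
Level of each gene as log2(TPM + 1) in every analysed HC nucleus, FOS- and FOS+ NE nucleus, saline cell and PTZ cell, with a black bar at the mean and whiskers of 1 SD over cells, which can pass below 0. *Sgk1* reaches above 100 TPM in 20 of 40 FOS+ nuclei and in none of the 41 FOS- nuclei, whereas *Nr3c2* is spread alike in both.

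*Sgk1* was the member that separated the sorted nuclei, with detection in 27 of 40 FOS+ nuclei (67.5%, CI 50.9 to 81.4%) and in 13 of 41 FOS- nuclei (31.7%, CI 18.1 to 48.1%). In FOS+ nuclei its lowest TPM was 0, the median 98.0 and the highest 2024. In FOS- nuclei the median was 0 and the highest 62.3. The groups overlapped, since 12 FOS+ nuclei held no *Sgk1* read, yet 20 of the FOS+ nuclei were above 100 TPM and no FOS- nucleus was.

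The detections differed in what stood behind them. A FOS- nucleus with *Sgk1* held a median of 1.11 expected counts and none reached 5 counts, whereas a FOS+ nucleus with *Sgk1* held a median of 131 and 24 of 40 reached 5. Summed over the group, *Sgk1* made up 5141 counts or 356 counts per 1000000 (CPM) in FOS+ nuclei (CI 346 to 365), against 20 counts or 1.43 CPM in FOS- nuclei (CI 0.875 to 2.21). The FOS+ nucleus with the most held 17.3% of the 5141 counts. With detection set at 5 counts, the difference in detection was 60.0 percentage points in place of 35.8.

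The mean of log2(TPM + 1) was 5.29 ± 4.08 (SD over 40 nuclei) in FOS+ and 1.09 ± 1.76 (SD over 41) in FOS- nuclei, a difference of 4.20, more than the pooled SD of 3.14. The mean TPM was 69.1 times higher, between 59.7 and 100.4 times when any 1 nucleus was left out. Among 16387 genes detected in at least 5 NE nuclei, 22 had a larger difference in favour of FOS+ nuclei. A size rule was used throughout, a difference of at least 1 in mean log2(TPM + 1), along with a share rule, a difference of at least 20 percentage points in detection. By the size rule 5.84% of the 16387 genes were higher in FOS+ nuclei and 8.01% lower, and by the share rule 4.30% were detected more often and 3.70% less often. *Sgk1* passed both rules as higher, and the other 5 members passed neither in either direction. The nuclei had been sorted on FOS protein. *Fos* RNA was detected in 12 FOS+ and 3 FOS- nuclei, and that of the IEG *Arc* in 31 and 1.

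NE nuclei were amplified under 4 conditions, with a template switching oligonucleotide (TSO) at 1 or 10 µM and spike-in RNA (ERCC) at 1:200 or 1:2000. *Sgk1* was detected more often in FOS+ nuclei under each. At 1 µM and 1:200 the counts were 6 of 10 FOS+ and 2 of 10 FOS- nuclei, and at 1 µM and 1:2000 they were 7 of 8 and 3 of 10. At 10 µM and 1:200 they were 6 of 11 and 2 of 10, and at 10 µM and 1:2000 they were 8 of 11 and 6 of 11. The intervals overlapped within each condition, where groups were small, and the difference at 10 µM and 1:2000, 18.2 percentage points, was below the share rule. The difference in mean log2(TPM + 1) was 4.10, 6.69, 2.69 and 3.96 in the same order, past the size rule in all 4.

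**Figure D2:**
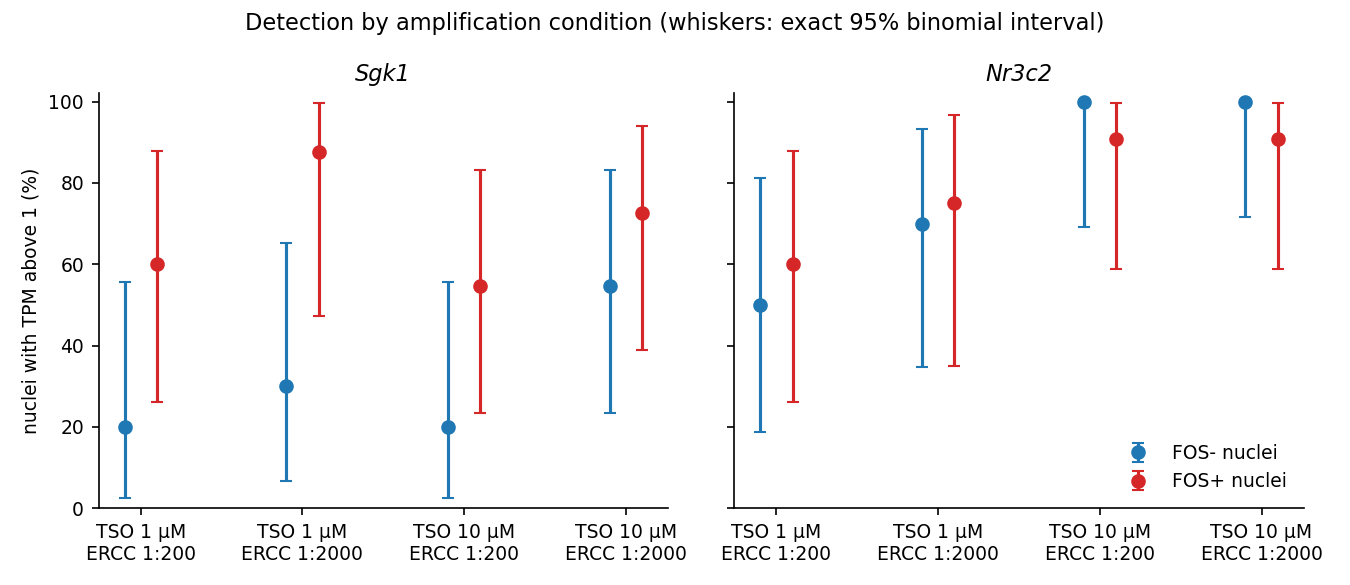
Share of NE nuclei with *Sgk1* (left) or *Nr3c2* (right) above 1 TPM under each amplification condition, for FOS- (blue) and FOS+ (red) nuclei, with exact 95% binomial intervals. *Sgk1* is higher in FOS+ nuclei under every condition, by 18.2 to 57.5 percentage points, and *Nr3c2* follows the TSO concentration in both groups.

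In HC nuclei *Sgk1* was detected in 4 of 23 (17.4%, CI 4.95 to 38.8%), with TPM values of 20.1, 21.3, 41.5 and 69.4 and a mean log2(TPM + 1) of 0.89 ± 2.00 (SD over 23). The 14 counts in all made up 3.59 CPM (CI 1.96 to 6.02). *Fos* was detected in 0 of the 23, which by the limit of 3 counts allows a share of up to 13.04% (exact CI up to 14.8%), and *Arc* in 1. The HC nuclei differ from the NE nuclei in chip, read layout and depth, so these values stand beside those of the NE nuclei without a comparison.

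Whole cells held *Sgk1* in both treatments, at detection in 18 of 38 saline cells (47.4%, CI 30.98 to 64.2%) and 13 of 30 PTZ cells (43.3%, CI 25.5 to 62.6%). The median TPM was 0 in saline cells and 0.315 in PTZ cells, and the highest was 715 and 1288. The mean log2(TPM + 1) was 3.09 ± 3.71 in saline (SD over 38) and 2.64 ± 3.38 in PTZ cells (SD over 30), a difference of -0.45 against a pooled SD of 3.55. Summed counts stood in the other order, at 176 CPM in PTZ cells (CI 172 to 180), where 1 cell held 40.5% of them, and 126 CPM in saline cells (CI 123 to 130). Of 38 saline cells 12 were above 100 TPM, and of 30 PTZ cells 5 were, and the groups overlapped. *Sgk1* thus passed neither rule in whole cells. The IEG *Egr1* was detected in 30 of 38 saline and 18 of 30 PTZ cells, and its mean was lower in PTZ cells by 2.11 on the log2 scale. The other 2 listed IEGs were below the size rule. *Fos* was detected in 30 saline and 26 PTZ cells (-0.46) and *Arc* in 17 and 14 (-0.998). The paper reports that papain dissociation itself elicited IEG expression, whatever the condition of the mouse. The part of dissociation in the *Sgk1* values of whole cells was not tested.

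Listed by mean log2(TPM + 1), *Sgk1* stood at 5.29 in FOS+ and 1.09 in FOS- nuclei, at 3.09 in saline and 2.64 in PTZ cells and at 0.89 in HC nuclei. The gap between the groups exceeded the pooled SD over cells in the NE nuclei and not in the whole cells, and levels of separate tables were not ranked against each other.

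*Sgk3* had another pattern. It was detected in 39 of 40 FOS+ nuclei (97.5%, CI 86.8 to 99.9%) and 39 of 41 FOS- nuclei (95.1%, CI 83.5 to 99.4%). The median TPM was 17.5 and 22.3, and the middle of the values was narrow, from 11.5 to 28.6 between the quartiles in FOS+ nuclei and from 11.01 to 34.5 in FOS- nuclei. The mean log2(TPM + 1) was 4.22 ± 1.13 in FOS+ and 4.38 ± 1.73 in FOS- nuclei, a difference of -0.16, and this was the smallest spread of any member in NE nuclei that was detected in most of them. The expected counts of *Sgk3* in NE nuclei were mostly not whole numbers, with medians of 11.99 in FOS+ and 10.86 in FOS- nuclei with the gene. In whole cells they were nearly all whole. The part of reads shared with other places in the genome was not tested. In whole cells *Sgk3* was detected in few cells, 3 of 38 saline cells (7.89%, CI 1.66 to 21.4%) and 8 of 30 PTZ cells (26.7%, CI 12.3 to 45.9%). Of the 94 *Sgk3* counts in saline cells 89.4% came from 1 cell. In PTZ cells 6 held at least 5 counts and the highest value was 49.3 TPM. The difference of 0.80 between PTZ and saline cells in mean log2(TPM + 1) and of 18.8 percentage points in detection was below both rules.

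The receptor genes came next. *Nr3c2* had the highest mean log2(TPM + 1) of the 6 genes in FOS+, FOS-, saline and PTZ groups alike. It was detected in 32 of 40 FOS+ nuclei (80.0%, CI 64.4 to 90.9%) and 33 of 41 FOS- nuclei (80.5%, CI 65.1 to 91.2%), with median TPM values of 177 and 169 and highest values of 1499 and 1714. In whole cells it was detected in 36 of 38 saline cells (94.7%, CI 82.3 to 99.4%) and 27 of 30 PTZ cells (90.0%, CI 73.5 to 97.9%), with medians of 119 and 122 TPM. The means of log2(TPM + 1) were 6.13 ± 3.64 in FOS+, 6.25 ± 3.34 in FOS-, 6.55 ± 2.14 in saline and 6.41 ± 2.45 in PTZ groups. The differences, -0.12 between sorted nuclei and -0.14 between treatments, were far below the spread over cells, and the groups overlapped, with highest values of 1010 TPM in PTZ and 570.1 TPM in saline cells. Summed counts were 412 CPM in FOS+ and 272 CPM in FOS- nuclei, and 201 CPM in PTZ and 235 CPM in saline cells.

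Detection of *Nr3c2* moved with the amplification. With the TSO at 1 µM it was detected in 24 of 38 NE nuclei (63.2%, CI 45.99 to 78.2%) and at 10 µM in 41 of 43 (95.3%, CI 84.2 to 99.4%). Both sorted groups held this shift, from 12 of 18 to 20 of 22 FOS+ nuclei and from 12 of 20 to 21 of 21 FOS- nuclei. *Sgk1* did not share it, with 18 of 38 and 22 of 43 nuclei. In FOS+ nuclei the *Nr3c2* level had a Pearson correlation of 0.55 with the number of genes detected (40 nuclei, which share 1 sort), and in FOS- nuclei of 0.38 (41 nuclei). In HC nuclei *Nr3c2* was detected in 5 of 23 (21.7%, CI 7.46 to 43.7%), none above 26 TPM.

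*Nr3c1* was scarce in nuclei. Detection was in 8 of 40 FOS+ nuclei (20%, CI 9.05 to 35.6%), in 7 of 41 FOS- nuclei (17.1%, CI 7.15 to 32.1%) and in 3 of 23 HC nuclei (13.04%, CI 2.78 to 33.6%). The median was 0 in all 3 groups, and the highest values were 417, 711 and 17.9 TPM. A single FOS- nucleus held 57.01% of the 328 counts of its group, and the ratio of mean TPM between FOS+ and FOS- nuclei went from 0.218 to 3.76 depending on which nucleus was left out, so that no direction could be given. In whole cells *Nr3c1* was detected in 26 of 38 saline cells (68.4%, CI 51.3 to 82.5%) and 14 of 30 PTZ cells (46.7%, CI 28.3 to 65.7%), with medians of 31.7 and 0 TPM.

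*Nr3c1* was the 1 member past the size rule as lower in PTZ cells. The mean log2(TPM + 1) was 3.75 ± 2.89 in saline and 2.74 ± 3.10 in PTZ cells, a difference of -1.004 that lay on the size rule and below the pooled SD of 2.999. The ratio of the group means of TPM was 0.847. Without the saline cell of the highest level the difference was -0.89, below the size rule. By the size rule 4.09% of 13748 genes were higher in PTZ cells and 8.47% lower, and by the share rule 3.26% were detected more often and 4.56% less often. *Nr3c1* passed both rules as lower, with a detection difference of -21.8 percentage points, which was -13.9 points when 5 counts were required. *Fkbp5* and *Tsc22d3* passed the size rule as higher and *Fkbp5* also passed the share rule, while the other 3 members passed neither.

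*Fkbp5*, the co-chaperone, was detected more often in PTZ cells. It was found in 14 of 30 PTZ cells (46.7%, CI 28.3 to 65.7%) and 5 of 38 saline cells (13.2%, CI 4.41 to 28.1%). The median was 0 in both, the upper quartile 38.3 TPM in PTZ and 0 in saline cells, and the highest 127 and 242 TPM. Summed counts made up 37.97 CPM in PTZ cells (CI 36.1 to 39.9) and 16.03 CPM in saline cells (CI 14.8 to 17.3), where 1 cell held 76.3% of them. The mean log2(TPM + 1) was 2.23 ± 2.69 in PTZ and 0.63 ± 1.79 in saline cells, a difference of 1.60 that 93 of 13748 genes exceeded and that was smaller than the pooled SD of 2.28. The mean TPM was 2.30 times higher in PTZ cells, and between 1.88 and 8.19 times when 1 cell was left out, the highest value being that without the top saline cell. The detection difference of 33.5 percentage points lay between 20.2 and 32.8 under 5 alternatives, the lowest at the edge of the share rule.

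In nuclei *Fkbp5* was common at low levels. It was detected in 32 of 40 FOS+ nuclei (80.0%, CI 64.4 to 90.9%) and 27 of 41 FOS- nuclei (65.9%, CI 49.4 to 79.9%), with median TPM values of 6.11 and 5.97. Expected counts were mostly not whole numbers, as for *Sgk1* and *Sgk3*, with medians of 3.76 in FOS+ and 6.36 in FOS- nuclei with the gene. The mean log2(TPM + 1) was 2.73 ± 1.96 and 3.08 ± 2.84, a difference of -0.35, while the detection difference was 14.1 percentage points in the other direction. That detection difference was 1.04 points with each nucleus thinned at random to 50000 counts. It was -4.09 points when 5 counts were required and -8.48 at TPM above 5, so that no direction could be given. A FOS- nucleus with 571 TPM held 58.9% of the counts of its group. In HC nuclei it was detected in 3 of 23 (13.04%, CI 2.78 to 33.6%).

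*Tsc22d3* was higher on average in PTZ cells by the size rule but was not detected much more often. It was found in 15 of 30 PTZ cells (50%, CI 31.3 to 68.7%) and 16 of 38 saline cells (42.1%, CI 26.3 to 59.2%). The highest value was 2470 TPM in PTZ and 336 in saline cells, and 9 PTZ and 6 saline cells were above 100 TPM. The mean log2(TPM + 1) was 3.54 ± 3.84 and 2.40 ± 3.16, a difference of 1.14 against a pooled SD of 3.52. A single PTZ cell held 61.8% of the 8617 counts, and the ratio of mean TPM of 4.06 was 2.18 without it. The difference in mean log2(TPM + 1) was then 0.87, below the size rule. In nuclei *Tsc22d3* was detected in 4 of 40 FOS+ (10.0%, CI 2.79 to 23.7%), 8 of 41 FOS- (19.5%, CI 8.82 to 34.9%) and 0 of 23 HC nuclei (up to 13.04% by the limit of 3 counts, exact CI up to 14.8%). Its difference between FOS+ and FOS- nuclei was -0.74, and 1 nucleus held 95.7% of the FOS+ counts.

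**Figure D3:**
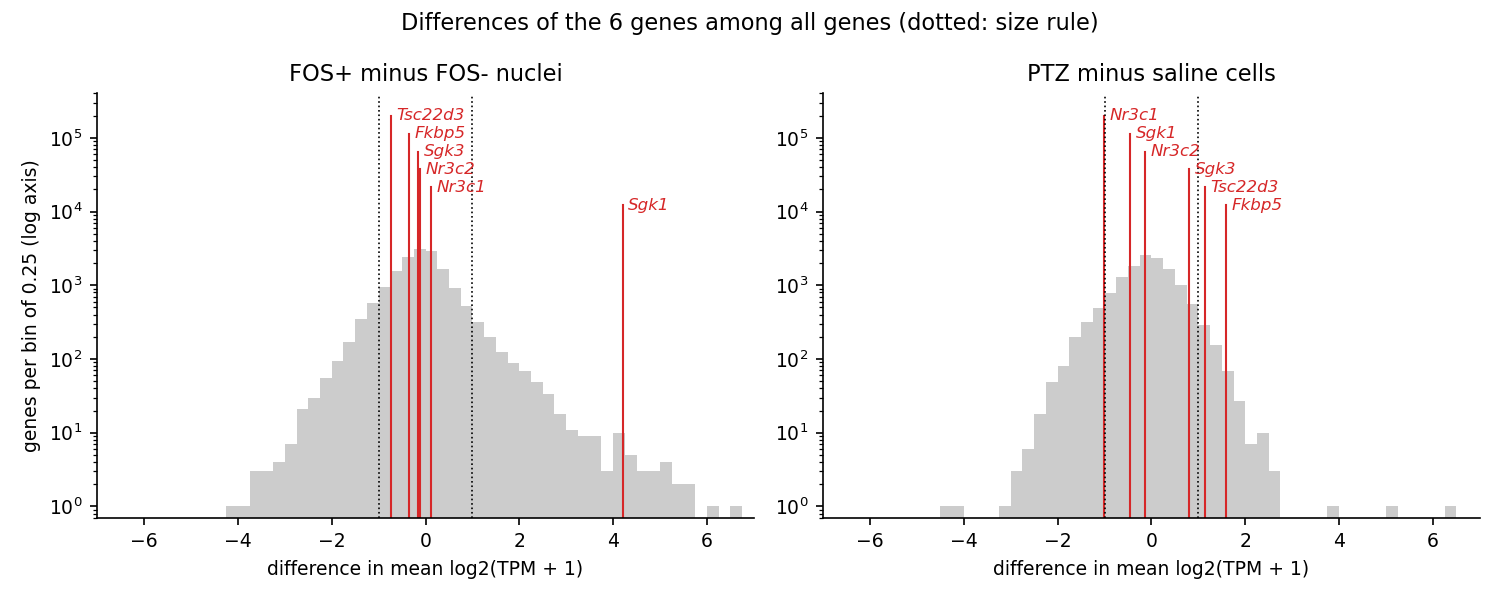
Histograms of the difference in mean log2(TPM + 1) over all genes detected in at least 5 cells, for FOS+ minus FOS- nuclei (left, 16387 genes) and PTZ minus saline cells (right, 13748 genes), on a log count axis, with red lines at the 6 genes and dotted lines at the size rule. *Sgk1* lies at 4.20 in the tail on the left and at -0.45 on the right, where *Fkbp5* (1.60) and *Tsc22d3* (1.14) lie past 1.

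Of the PTZ cells 4 had more genes than the 7854 of the richest saline cell, and 3 of these held all 6 members, with 10924, 12220 and 10985 genes. Without the 4 cells *Fkbp5* was detected in 10 of 26 PTZ cells and *Tsc22d3* in 11 of 26. The difference from saline cells was then 1.33 for *Fkbp5* and 0.85 for *Tsc22d3*, the second below the size rule, -1.31 for *Nr3c1*, and -1.11 for *Sgk1*, past the size rule as lower. No cell was removed as a doublet. With only the 23 PTZ cells that were at least as deep as the shallowest saline cell, the differences were 2.01 for *Fkbp5*, 1.77 for *Tsc22d3*, -1.57 for *Nr3c1* and -0.40 for *Sgk1*.

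Nuclei and whole cells were set side by side without a test, since their tables were made separately and from different read layouts. *Sgk3* was detected in 78 of the 81 NE nuclei, mostly with expected counts that were not whole numbers, and in 11 of the 68 whole cells. *Nr3c1* was detected in 15 of 81 nuclei and 40 of 68 cells, and *Tsc22d3* in 12 of 81 and 31 of 68. *Nr3c2* was common in both. Whole cells and nuclei also differed in mice, treatment and read length, whose parts were not tested.

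The members were then counted cell by cell. A FOS+ nucleus held a median of 4 of the 6 genes and a FOS- nucleus 3, a saline or PTZ cell 3 and an HC nucleus 1. Of the 27 FOS+ nuclei with *Sgk1*, 22 held *Nr3c2*, 23 held *Fkbp5*, 4 held *Nr3c1* and 2 held *Tsc22d3*. The Pearson correlation of *Sgk1* with the other members over the 81 NE nuclei lay between -0.16 for *Tsc22d3* and 0.11 for *Sgk3*, and over the 68 whole cells between -0.07 for *Sgk3* and 0.22 for *Nr3c1*.

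The genes whose levels were most like that of *Sgk1* included known IEGs. Among 13213 genes over the 81 NE nuclei, the highest Pearson correlations were those of *Fosb* (0.68), an IEG transcription factor, *1700016P03Rik* (0.66), *Arc* (0.64), which encodes a regulator of synaptic receptors, *Pim1* (0.64), a kinase, and *Spry2* (0.63), an inhibitor of growth factor signalling. These values rest partly on the sort, since nuclei of both groups are pooled. Within the 40 FOS+ nuclei they were 0.61, 0.59, 0.45, 0.46 and 0.51 in the same order, and within the 41 FOS- nuclei, where *Fosb* was detected in 2, they lay between -0.14 and 0.14. Of the 27 FOS+ nuclei with *Sgk1*, 25 held *Arc*, 17 held *Fosb* and 12 held *Fos*, and all 12 FOS+ nuclei with *Fos* RNA held *Sgk1*.

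Over the 68 whole cells, among 11454 genes, the list was led by *Penk* (0.68), which encodes the enkephalin precursor, followed by *Egr3* (0.62), *Nptx2* (0.56), *Egr2* (0.55) and *Btg2* (0.51). *Egr3* and *Egr2* encode IEG transcription factors and *Nptx2* a secreted synaptic pentraxin. Here the relation was present in both treatments, at 0.66 and 0.70 for *Penk* and 0.58 and 0.64 for *Egr3* in PTZ and saline cells. *Sgk1* itself had a correlation of 0.12 with the log2 total count over these cells and of 0.18 over the NE nuclei. In PTZ cells its correlation with the number of genes was 0.57.

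**Figure D4:**
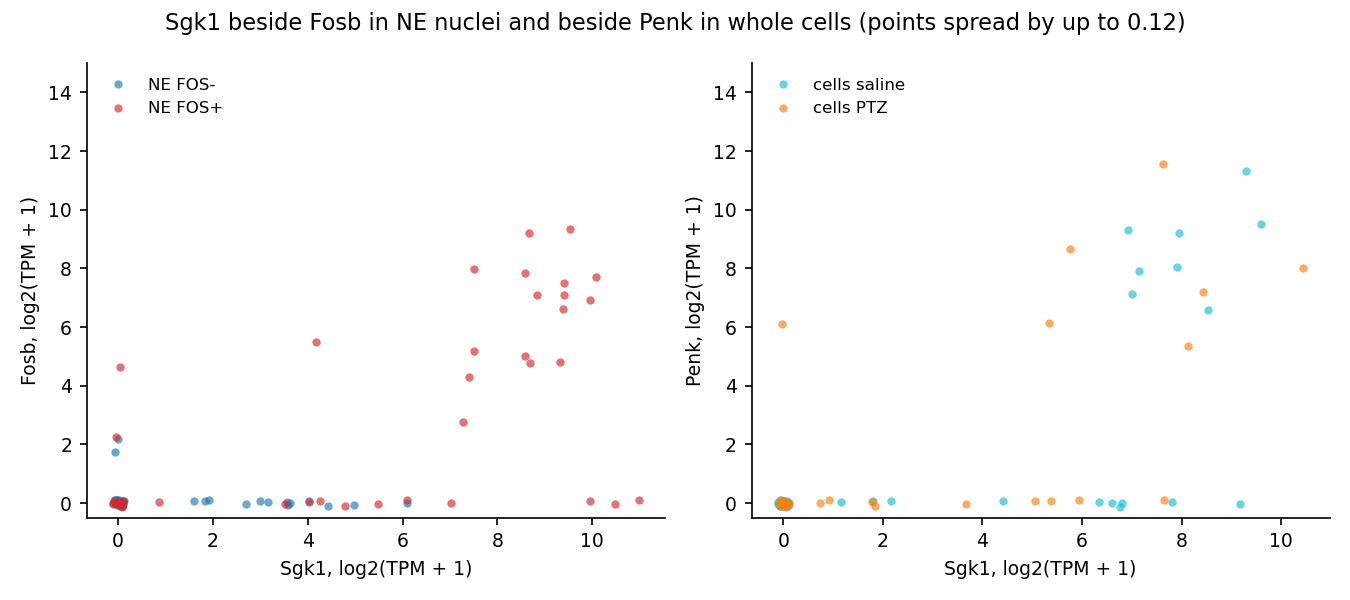
Level of *Sgk1* on the x axis against *Fosb* in the 81 NE nuclei (left) and *Penk* in the 68 whole cells (right), both as log2(TPM + 1), 1 point per nucleus or cell. Of 40 FOS+ nuclei 19 hold *Fosb* and 17 of these hold *Sgk1*, and cells with *Penk* come from both treatments (7 PTZ and 8 saline).

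The remaining genes of the pathway were described by lists drawn up for this purpose. Of 22 listed genes that glucocorticoids are known to induce, 18 were detected in at least 5 NE nuclei, 6 passed the size rule as higher in FOS+ nuclei and 0 as lower, beside 5.84% and 8.01% of all genes. The median difference was 0.68, against -0.09 over all 16387 genes. The metallothionein genes *Mt1* (3.29) and *Mt2* (2.54), whose products bind zinc and copper, were among them. *Errfi1* (2.71), which encodes an inhibitor of the epidermal growth factor receptor, was detected in 24 of 40 FOS+ and 7 of 41 FOS- nuclei. *Zbtb16* (2.60), a zinc finger repressor, was detected in 33 and 13 nuclei, and *Klf9* (1.90), a transcription factor, in 26 and 12. The clock gene *Per1* (1.83) was the remaining one, outside the 5 named by rule and chosen after its value was seen. Members that glucocorticoids also induce stood outside this list, with differences of 4.20 for *Sgk1*, -0.35 for *Fkbp5* and -0.74 for *Tsc22d3*. The list was drawn up with earlier results of these data known, and a response to glucocorticoids was not tested.

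In whole cells 15 of the 22 passed the filter, 4 passed the size rule as higher in PTZ cells and 1 as lower, beside 4.09% and 8.47% of all genes, with a median difference of 0.40 against -0.06 over all 13748 genes. The higher ones were *Mt1* (2.30), *Dusp1* (1.58), a phosphatase of MAP kinases, *Mt2* (1.34) and *Rhob* (1.33), a small GTPase. *Mt1* was detected in 27 of 30 PTZ and 26 of 38 saline cells, with medians of 280 and 115 TPM. *Zbtb16* was lower in PTZ cells (-1.30), detected in 13 of 30 PTZ and 27 of 38 saline cells, while in nuclei it was higher in FOS+. *Errfi1*, past the rule in nuclei, differed by -0.41 in whole cells.

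**Figure D5:**
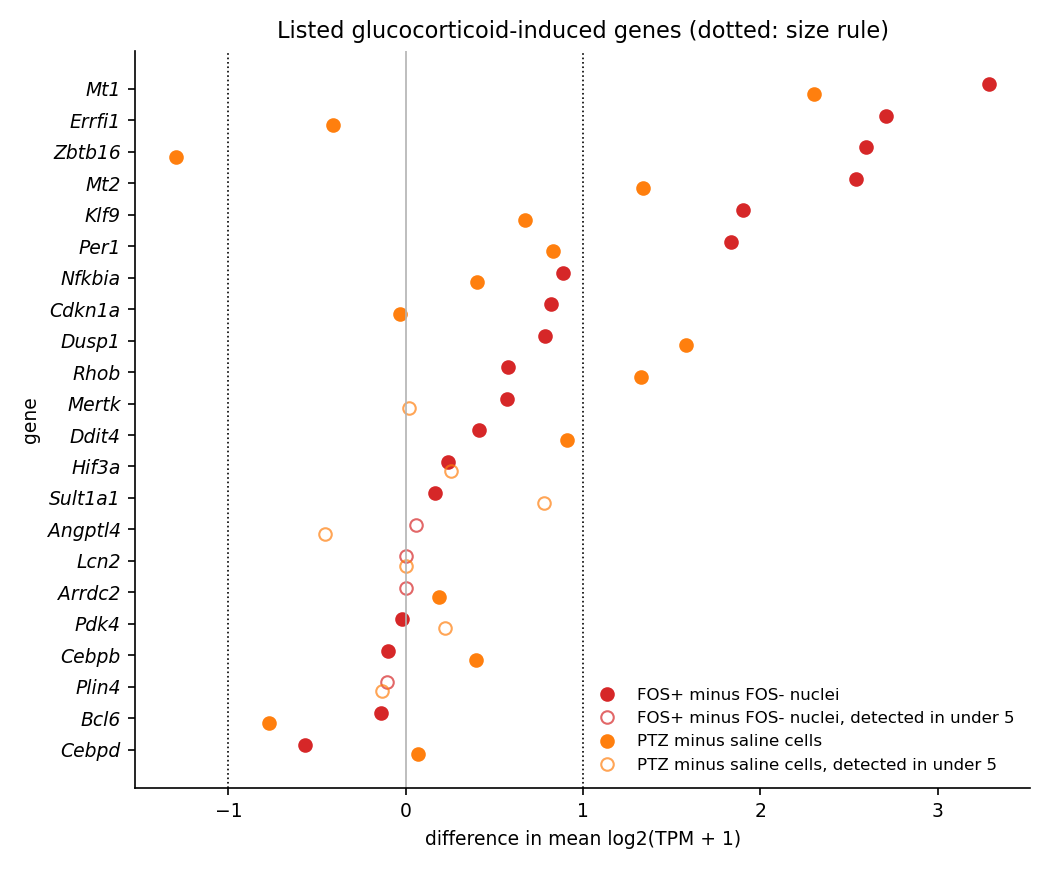
Difference in mean log2(TPM + 1) of the 22 listed glucocorticoid-induced genes for FOS+ minus FOS- nuclei (red) and PTZ minus saline cells (orange), with open circles for genes detected in under 5 cells of the comparison and dotted lines at the size rule. *Mt1* and *Mt2* lie past 1 in both comparisons, and *Zbtb16* lies at 2.60 in nuclei and -1.30 in cells.

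Of 19 genes for receptor chaperones and coregulators, all 19 passed the filter in nuclei and 3 were higher in FOS+ nuclei and 0 lower, beside 5.84% and 8.01% of all genes, with a list median of -0.01 against -0.09. These were the heat shock genes *Hsp90aa1* (2.00), *Hspa8* (1.68) and *Dnajb1* (1.49), which encode parts of the machinery that folds the receptors and many other proteins. *Hsp90aa1* was detected in 38 of 40 FOS+ nuclei with a median of 526 TPM and in 32 of 41 FOS- nuclei with a median of 207 TPM. In whole cells 1 of the 19 was higher and 1 lower, beside 4.09% and 8.47% of all genes. *Ncoa1*, a coactivator, was higher in PTZ cells (1.08) and *Smarca4*, an ATPase of chromatin remodelling, was lower (-1.77, detected in 21 of 30 PTZ and 37 of 38 saline cells), with a list median of -0.27 against -0.06. Without the PTZ cell of the highest *Ncoa1* level its difference was 0.95. The 3 heat shock genes did not pass there.

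Of 23 genes for the activation and the substrates of SGK kinases, 22 passed the filter in nuclei, 0 were higher and 1 was lower, *Nedd4* (-1.46), a ubiquitin ligase, beside 5.84% and 8.01% of all genes. The list median was -0.31 against -0.09. *Nedd4* was detected in 34 FOS+ and 35 FOS- nuclei, with medians of 16.2 and 123 TPM. Its difference was below the size rule within 2 amplification conditions, -0.08 at TSO 10 µM and ERCC 1:200 and -0.67 at TSO 1 µM and ERCC 1:200. In whole cells 21 passed the filter, 2 were higher in PTZ cells and 3 lower, beside 4.09% and 8.47% of all genes, with a list median of -0.13 against -0.06. The higher ones were *Ndrg2* (1.39), a relative of the SGK substrate *Ndrg1*, and *Wnk1* (1.25), a kinase of salt transport. The lower ones were *Pik3r1* (-1.28), *Mtor* (-1.23) and *Pdpk1* (-1.09), which encode a regulatory subunit of PI 3-kinase and a pair of kinases upstream of SGK. The *Pdpk1* difference was -0.98 without the saline cell of its highest level and -0.07 with all cells of the table.

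The enzymes, transporters and binding protein that govern corticosteroid supply were rare. Of 7 listed genes, 3 passed the filter in nuclei and 4 in whole cells, and 0 passed the size rule in either comparison. Of all genes 5.84% were higher and 8.01% lower in nuclei, and 4.09% and 8.47% in whole cells, so that few calls could arise among so few genes. The list medians were -0.22 and 0.22, against -0.09 and -0.06 over all genes. *Hsd11b1*, which regenerates active corticosterone, was detected in 1 FOS+ nucleus, 4 FOS- nuclei, 5 PTZ cells and 2 saline cells. Of 7 other steroid and related nuclear receptors, 5 passed the filter in nuclei and 3 in cells, with medians of -0.09 and -0.19. In nuclei 0 were higher and 1 lower, and in cells 0 in either direction, beside the same shares of all genes. The 1 was the orphan receptor gene *Esrra* (-1.05), detected in 0 of 40 FOS+ nuclei (up to 7.50% by the limit of 3 counts, exact CI up to 8.81%) and 6 of 41 FOS- nuclei. It passed the filter through FOS- nuclei alone and so could not have been called higher. Without the FOS- nucleus of the highest *Esrra* level the difference was -0.85, below the size rule. The *Esrra* difference was below that rule under 8 of 11 alternatives, so that no difference is read from it.

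Cell type markers were checked in the same groups. Of 5 granule neuron markers all were detected in every group, and *C1ql2* was lower in FOS+ nuclei (-1.52) and in PTZ cells (-1.78). The oligodendrocyte gene *Mag* was higher in FOS+ nuclei (1.12), detected in 23 FOS+ and 14 FOS- nuclei, and was the only 1 of 6 such markers past the rule. The summed level of the 6 ranged from 0 to 945 TPM in FOS+ and from 0 to 351 TPM in FOS- nuclei, with *Mog* at 0 in FOS+ and *Cldn11* at 0 in FOS- nuclei. The interneuron gene *Gad1*, which granule cells can also express, was higher in FOS+ nuclei (1.42), and *Gad2* was detected in 14 FOS+ and 7 FOS- nuclei (0.60, below the rule). *Sst* was detected in 4 and 5, *Slc32a1* in 0 and 2 and *Pvalb* in none of either, and the sum of the 5 interneuron markers ranged from 0 to 1360 TPM in FOS+ and from 0 to 1313 TPM in FOS- nuclei. Few genes of the astrocyte, microglial, endothelial and oligodendrocyte precursor lists passed the filter, in that order 1, 3, 1 and 0 in nuclei. In whole cells 1, 0, 1 and 0 did. Of these, 0 passed the size rule in either comparison, which with so few genes says little about these cell types. Of all genes 5.84% and 8.01% passed in nuclei and 4.09% and 8.47% in whole cells. The summed levels of the 4 lists reached 584, 3436, 110 and 52.3 TPM in FOS+ nuclei and 413, 51.8, 13.8 and 1.45 TPM in FOS- nuclei. The microglial *Cx3cr1* was detected in 29 FOS+ and 33 FOS- nuclei, *Csf1r* in 4 and 1 and *P2ry12* in 4 and 5, while *Tmem119* and *C1qa* were at 0 in both groups. The endothelial *Pecam1* was detected in 17 and 19 and *Flt1* in 2 and 0, while *Cldn5*, *Cdh5* and *Ly6c1* were at 0. The astrocyte *Slc1a3* was detected in 31 and 25. In whole cells the same lists reached 3830, 5.48, 18.7 and 0 TPM in PTZ and 87.4, 27.2, 6.38 and 0.17 TPM in saline cells. *Slc1a3* was detected in 6 PTZ cells, to 2588 TPM, and in 8 saline cells, to 87.4 TPM. *Gfap*, *Gja1* and *Aldh1l1* were each detected in 1 PTZ cell and in 0 saline cells, and *Aqp4* was at 0 in both. The oligodendrocyte sum reached 234 TPM in PTZ and 173 TPM in saline cells, and 4 of the 5 interneuron markers were detected in no whole cell. The other, *Gad1*, was detected in 21 of 30 PTZ and 33 of 38 saline cells, with medians of 123 and 156 TPM (-0.89, below the size rule). Of 3 pyramidal neuron markers *Fibcd1* was higher in PTZ cells (1.02), and the sum reached 1787 TPM in PTZ and 255 TPM in saline cells. *Neurod6* was detected in 7 PTZ and 4 saline cells (0.91, below the rule) and *Spink8* in 1 and 1. The pyramidal sum was above 1 TPM in 16 of 30 PTZ and 9 of 38 saline cells. In FOS+ nuclei it reached 145 TPM and in FOS- nuclei 79.7 TPM. The part of these markers in the values of the 6 genes was not tested.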

How the data were processed

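Whole cells, NE nuclei and HC nuclei each came with paired tables, 1 of expected counts and 1 of TPM. The authors trimmed the reads and aligned them with RSEM and Bowtie 1.0.0 to mm10. The expected counts, RSEM's estimated read numbers, were deposited without normalization, and the TPM values were scaled by the authors within each cell. Whole cells and HC nuclei were read as pairs of 100 bases, NE nuclei as single reads of 50 bases.

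Here, cells of the whole-cell and NE tables were kept with a total count over 50000 and more genes above 1 TPM than the table's mean minus 2 SD, which left out 9 saline and 5 PTZ cells and 8 FOS+ and 7 FOS- nuclei. All 23 HC nuclei were kept, among them 1 that was below the limit on genes taken from the HC nuclei. No columns were identical, and no doublet caller was run. Levels were averaged as log2(TPM + 1), so that differences of low genes are understated. The summed counts were rounded. Cells share 1 preparation per group, the same one for FOS+ and FOS- nuclei, so no test was run and 95% intervals are exact. The members and lists were chosen with earlier results of these data known. Named list genes were, per list and direction, the 5 with the largest difference past the size rule, and for likeness the 5 highest Pearson correlations among genes detected in at least 10 cells. The difference script was run on shuffled values of the FOS- nuclei with known shifts put in, which checks its arithmetic alone. Analyses used Python 3.11.15, pandas 2.3.3, numpy 2.4.6 and scipy 1.17.1.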

Additional observations from a re-analysis of the deposited data

How the results depend on the processing

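Of 210 values of the members under other settings, 204 stayed within their spread and 6 moved. For detection, the spread was the confidence interval of the difference. For levels it was the SD over cells, which is so wide that most settings could hardly move a value past it. All 6 values that moved were detection differences. Staying within the spread did not require the same sign or the same side of a rule, so the 204 do not show that levels were robust. The *Sgk1* detection difference between FOS+ and FOS- nuclei was 60.0 percentage points at a limit of 5 counts and 57.5 within TSO 1 µM and ERCC 1:2000. For *Sgk3* it was 20 within TSO 10 µM and ERCC 1:200, for *Nr3c1* -17.5 within TSO 1 µM and ERCC 1:2000, and for *Fkbp5* -8.48 at TPM above 5 and -7.27 within TSO 10 µM and ERCC 1:200. The *Sgk1* level difference in nuclei stayed between 2.69 and 6.69 under its 11 alternatives. The level difference of *Nr3c1* in nuclei changed sign under 5 of 11 alternatives, and that of *Nr3c2* under 4 of 11. In whole cells the detection difference of *Nr3c1* was below the share rule under 4 of 5 alternatives. In whole cells a pseudocount of 10 took the level differences of *Fkbp5* (0.68), *Tsc22d3* (0.76) and *Nr3c1* (-0.44) below the size rule, and leaving out single cells did so for *Tsc22d3* (0.87) and *Nr3c1* (-0.89). The *Klf9* difference in nuclei was -0.71 and that of *Nedd4* -0.08 within TSO 10 µM and ERCC 1:200. Those of *Errfi1* and *Hspa8* were 0.03 within TSO 1 µM and ERCC 1:200 and 0.16 within TSO 1 µM and ERCC 1:2000. With all cells of the tables, 587 genes were higher in FOS+ nuclei in place of 957 and 486 lower in PTZ cells in place of 1165. Of the 5 genes most like *Sgk1* in nuclei, 2 stayed among the 5 highest in FOS+ nuclei alone and 0 in FOS- nuclei alone. The causes were not tested. The alternatives that left out the highest cells, that matched PTZ cells to saline cells in depth or genes, and that took FOS+ or FOS- nuclei alone were chosen after seeing the data. No paired analysis was possible because no result comes from a test and the cell numbers pair nothing.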
